A study of Mus musculus with 15 samples.

Results

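MC3T3 clone 1b cells, an osteoblast precursor line from mouse calvaria that is 1 clone, were compared after 3 days with beta-glycerol phosphate (GP) and before the addition. The comparison used 6 of the 15 arrays of the series, chosen by their titles: the 3 labelled GP day 3 and the 3 labelled day 0 medium, which differ in both the addition and the time in culture, so the effect of GP and that of 3 days cannot be told apart. No array of cells kept in medium alone for 3 days was used here, and neither ascorbic acid nor bone morphogenetic protein 2 (BMP-2) was given to any of these cells. The remaining arrays entered the fit as well: 3 of GP day 1, which is used to place genes in time, and 3 at each day of cells given GP, ascorbic acid and BMP-2 together. Each array has a preparation number, 1 to 3, called the replicate here, and the GP day 3 and day 0 medium arrays were paired by it. The labels do not state what was separate between preparations, so the p-values rest on a spread between arrays that could be technical.

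Osteoblasts secrete a matrix of type I collagen, crosslink it, and then deposit mineral in it. GP is an organic phosphate that alkaline phosphatase splits, so that free phosphate becomes available for mineral. Ascorbic acid is the cofactor that collagen hydroxylation needs, and BMP-2 drives precursors towards the osteoblast fate. Precursor cells in culture also divide until they become crowded, and the expression of genes of mitosis follows that division.

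The arrays gave intensities for 12422 probe sets other than controls, already scaled to nearly the same trimmed mean on each array. Intensities under 24.9 were set to that floor, and the 7495 probe sets with a mean of at least 24.9 were tested, standing for 5677 genes with 1 probe set each. GP day 3 replicate 3 stood apart in its control probe sets: the ratio of the 3' to the 5' actin signal, a sign of RNA quality, was 2.11, against 1.00 to 1.34 on the other 14 arrays, and its GAPDH ratio was 1.19, against 0.80 to 1.02. Of its values, 43.7% were under the floor, and its median intensity was 38.4, the lowest of the series. These 2 traits were not particular to that array. The day 3 replicate 3 array with GP, ascorbic acid and BMP-2 had 43% and 39.4. In each group the replicate 3 array had the largest share under the floor and the lowest median. Results are therefore also given without that array and without all arrays of replicate 3.

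The labelled cell type was checked against 12 osteoblast-lineage markers, of which 9 were matched to a named probe set here. Col1a1 and Col1a2, the chains of type I collagen, were between 6727.4 and 10253 units on the 3 GP day 3 arrays and between 7854.8 and 9989 units on the 3 day 0 arrays. Sparc and Postn, other matrix proteins of these cells, were also bright, Sparc at 2325.6 to 3218.6 units at GP day 3 and 2500.9 to 3046.7 units at day 0, and Postn at 3411 to 5171 and 2641.6 to 4808.8 units, whereas Ibsp, a protein of mineralising matrix, was under the floor on all 6. Alpl was near the floor, at 20.6 to 33.4 units at GP day 3 and 10.2 to 34.1 units at day 0. Msx2 was dim, at 29.8 to 54.1 and 34.9 to 88 units. Dlx5 was at 239.3 to 274.3 and 178.2 to 313.2 units, and Cdh11 at 315.1 to 438.9 and 312.4 to 382 units. Summed over the 9 markers, the signal was 20200 to 28000 units at GP day 3 and 22600 to 27700 units at day 0. Most of that sum came from Col1a1 and Col1a2, so it says little about the other markers. In these bulk samples fewer cells of a type and less RNA per cell cannot be told apart.

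Only 2 of 7495 probe sets passed the threshold between GP day 3 and day 0 medium (limma adjusted p under 0.05), which is 0.0267%. One was higher, Cmbl, and one was lower, Lox. Without the replicate number as a block the count was 1, Cmbl. Other scalings of the arrays gave 4 calls, 3 higher and 1 lower (quantile), or 9 calls, 7 higher and 2 lower (equal medians). At an unadjusted p under 0.05 there were 737 probe sets, and 310 without the block. The median standard error of a log2 difference was 0.19, and 5112 of 5677 genes (90.0%) had a 95% interval that lay wholly within 1 log2 unit of 0. Values set to the floor cannot differ between arrays, so for dim genes the floor can narrow this interval. Over all genes the median log2 difference was 0.01, and 43 genes had a difference of more than 1 log2 unit, 27 higher and 16 lower.

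Cmbl encodes a cytosolic hydrolase of the carboxymethylenebutenolidase family. Its intensity was 88.8, 108.2 and 127 units on the 3 GP day 3 arrays, against 29.5, 33.4 and 41.9 units on the day 0 arrays. The groups did not overlap, and the 3 replicates gave almost the same log2 difference, 1.59, 1.70 and 1.60. The means were 108 ± 19.1 units at GP day 3 and 34.9 ± 6.34 units at day 0 (SD, n = 3 each), a log2 difference of 1.63 ± 0.20 (SE, limma adjusted p = 0.00354; 0.0236 without the block). At GP day 1 the values were 28.8, 34.4 and 46.6 units, still at the day 0 level. GP day 3 was higher than GP day 1 by 1.57 ± 0.20 on the log2 scale. That step uses the same GP day 3 arrays that singled out the gene, so its size is given as a description. Day 3 cells that also had ascorbic acid and BMP-2 gave 4.8, 15.5 and 14.6 units, all under the floor. Cmbl is a dim gene, and it passed the signal filter only through its GP day 3 arrays: its mean over the 12 arrays of the other groups was 23.0 units. With no signal filter its limma adjusted p was 0.00898. Its call was lost with a floor at the 10th percentile of values (limma adjusted p = 0.144) or at the 60th percentile (log2 difference 0.44, limma adjusted p = 0.171). It was also lost with only the 6 arrays in the fit (0.189), without day 0 medium replicate 2 (0.0508), and without replicate 1 (0.227) or replicate 2 (0.474) altogether.

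Lox encodes lysyl oxidase, the secreted copper enzyme that starts the crosslinks of collagen and elastin. Its intensity was 472.3, 271.4 and 436 units at GP day 3, against 1075.2, 910.8 and 962.3 units at day 0, again with no overlap. The means were 393 ± 107 units and 983 ± 84.1 units (SD, n = 3 each), a log2 difference of -1.36 ± 0.16 (SE, limma adjusted p = 0.00354). Over time, day 0 was followed by 977.4, 560.9 and 641.3 units at GP day 1, and Lox was lower at GP day 3 than at GP day 1 by a log2 difference of -0.88 (limma adjusted p = 0.00851; 0.242 without the block). Lox fell in each replicate, by 1.19, 1.75 and 1.14 on the log2 scale. Its call was lost without the block (limma adjusted p = 0.202), with a floor at the 60th percentile (0.0544), with no signal filter (0.0944), with only the 6 arrays (0.168), without day 0 medium replicate 2 (0.0508), and without replicate 1 (0.188) or 2 (0.474).

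**Figure D1:**
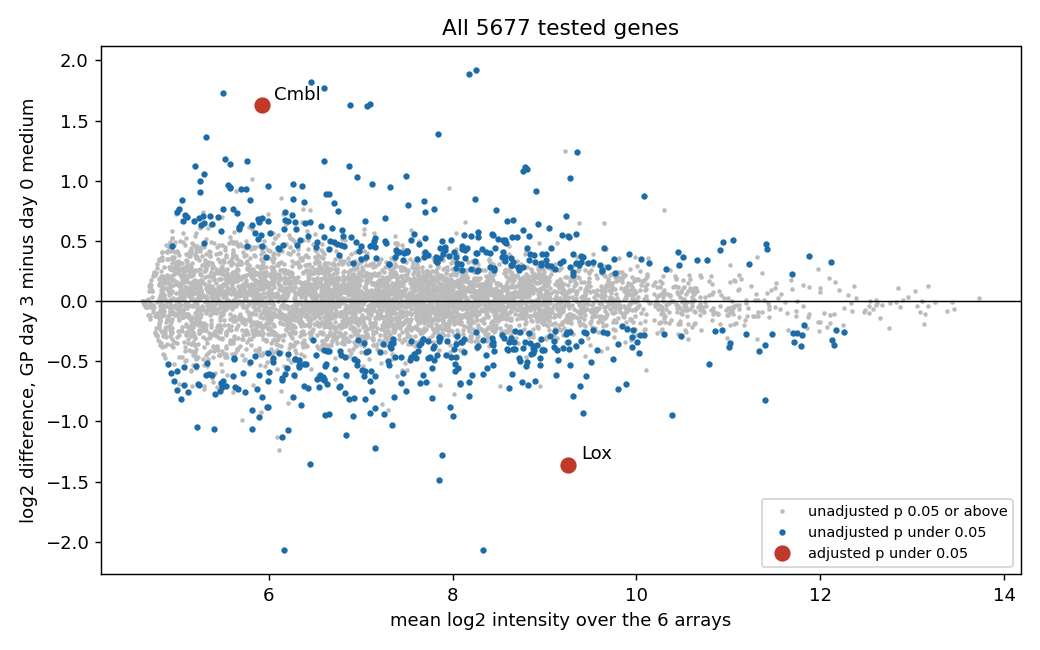
Log2 difference of GP day 3 minus day 0 medium (y axis) against mean log2 intensity over the 6 arrays (x axis) for the 5677 tested genes, 1 point per gene. The red points mark the only genes past the adjusted threshold, Cmbl at 1.63 and Lox at -1.36, and blue points have an unadjusted p under 0.05.

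Below that threshold, 276 genes were higher and 293 genes were lower at GP day 3 at an unadjusted p under 0.05, which is 4.86% and 5.16% of the 5677 genes. The genes described next had the smallest p in each direction among genes with the same sign in all 3 replicates. They were chosen after their values were seen, none of them passed the adjusted threshold, and their values are given as descriptions. Steps from GP day 1 given for these genes use the same GP day 3 arrays, so a call there is not separate support. A difference of the same sign in all 3 replicates was shown by 1641 of 5677 genes (28.9%).

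Among the higher genes were 3 that are best known from striated muscle. Tnnt1, the slow troponin T, was at 180.3, 368.9 and 134.9 units at GP day 3, against 75.6, 61.9 and 65.1 units at day 0, a log2 difference of 1.63 ± 0.27 (SE, limma adjusted p = 0.0641). Tnnc1, the slow and cardiac troponin C, was at 201, 400.2 and 164.1 units, against 90.1, 72.4 and 69.9 units (1.62 ± 0.29, limma adjusted p = 0.0665). A second, dimmer Tnnt1 probe set gave a log2 difference of 0.31. In both troponins replicate 2 was the highest GP day 3 array and no GP day 3 array was as low as a day 0 array. Actn3, the alpha-actinin of fast fibres, was at 130.5, 108.8 and 39.7 units at GP day 3, while its 3 day 0 values, 18.4, 9.5 and 18.2 units, were all under the floor, so its log2 difference of 1.73 ± 0.30 is measured from the floor (limma adjusted p = 0.0649). Actn3 passed the signal filter only through its GP day 3 arrays, with a mean of 22.2 units over the other 12, so its level is given as a description, and its second probe set gave 0.48. Against GP day 1, both troponins were called higher at GP day 3, Tnnt1 by 1.97 (limma adjusted p = 0.000819) and Tnnc1 by 2.39 (0.000366) on the log2 scale. These calls rest on the same GP day 3 arrays by which the 2 genes were chosen, so they are not separate support. Of the 12 skeletal muscle markers, 4 were under the floor on all 6 arrays, namely Acta1, Des, Myh3 and Tnnt3. The summed signal of the 12 was 796 to 1430 units at GP day 3 and 906 to 1040 units at day 0, most of it from Actc1.

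Htra1, a secreted serine protease that cleaves matrix proteins, was at 844, 1111.3 and 1080.7 units at GP day 3, against 331.1, 364.6 and 634.9 units at day 0 (log2 difference 1.24 ± 0.21, limma adjusted p = 0.0641). Enpep and Agt belong to the angiotensin system: Agt is the precursor of angiotensin and Enpep is the membrane aminopeptidase that trims angiotensin II. Enpep was at 584.3, 672 and 530.1 units at GP day 3, against 101.4, 138.4 and 273.8 units at day 0 (1.92 ± 0.35, limma adjusted p = 0.0665), and Agt was at 418.7, 625.1 and 655.6 units, against 99, 132.6 and 257.8 units (1.89 ± 0.39, limma adjusted p = 0.0928). In each of these 3 genes the groups did not overlap, and day 0 replicate 3 was the highest of the day 0 arrays. A second, dimmer Enpep probe set gave a log2 difference of -0.03, opposite to the one used. Mmp9, the gelatinase B of matrix turnover, was at 547.7, 169.7 and 48.5 units at GP day 3, against 116.9, 35.5 and 9.1 units at day 0. Its groups overlapped, since the replicates lay far apart within each group, but each replicate was higher at GP day 3 (1.82 ± 0.36, limma adjusted p = 0.0818).

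The remaining genes of that group had smaller differences. Ank, the transmembrane protein that exports pyrophosphate, an inhibitor of mineral growth, was at 414.4, 625.4 and 514.5 units at GP day 3, against 271.1, 422.5 and 287.3 units at day 0 (log2 difference 0.67 ± 0.13, limma adjusted p = 0.0665). It was called higher than at GP day 1, by 0.87 (limma adjusted p = 0.00143, and 0.0972 without the block), with the same GP day 3 arrays. Lep, the adipocyte hormone leptin, differed by 0.97 ± 0.18 (limma adjusted p = 0.0665). Of 8 adipocyte markers on the array, 6 were under the floor on all 6 arrays, Adipoq, Fabp4 and Pparg among them, and the sum of the 8 was 410 to 546 units at GP day 3 and 274 to 312 units at day 0, nearly all from Lep and Cebpa; their part in the result was not tested. Fxyd1, a regulator of the sodium pump, Hopx, a homeodomain cofactor, the prostaglandin F receptor gene Ptgfr, the calcium channel gene Cacna1g, the transcription factor gene Ets2 and the respiratory chain gene Uqcr10 had log2 differences between 0.51 (Uqcr10) and 1.39 (Ptgfr), with limma adjusted p between 0.0665 and 0.143.

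**Figure D2:**
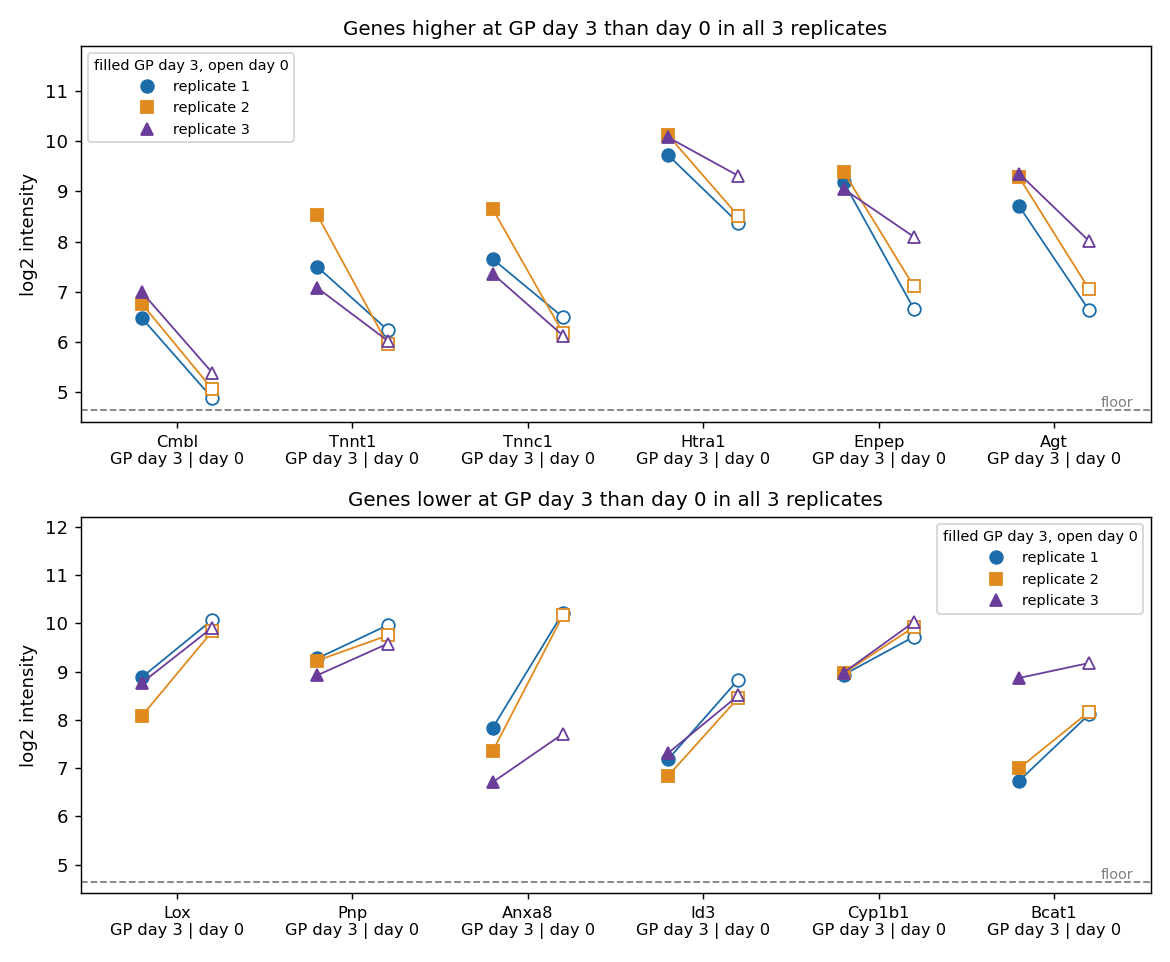
Log2 intensity (y axis) of 12 genes on the 6 arrays, filled for GP day 3 and open for day 0 medium, with lines joining arrays of the same replicate and the dashed line at the floor of 24.9 units. Cmbl and Lox are the called genes. Replicate 3 has the smallest of the 3 differences for Tnnt1, Htra1, Enpep, Agt, Lox, Anxa8, Id3 and Bcat1.

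Among the lower genes, Pnp, the purine nucleoside phosphorylase of purine salvage, was at 619.1, 600 and 485.9 units at GP day 3, against 996, 859.7 and 763.1 units at day 0 (log2 difference -0.62 ± 0.11, limma adjusted p = 0.0665). Anxa8, a calcium-dependent phospholipid-binding annexin, was at 228.6, 163.6 and 104.5 units, against 1192.1, 1149.1 and 209.4 units (-2.07 ± 0.39, limma adjusted p = 0.0665), so its groups overlapped and day 0 replicate 3 was far below the other day 0 arrays. Id3, an inhibitor of helix-loop-helix factors and a target gene of BMP signalling, was at 145.3, 114.5 and 158.8 units at GP day 3, against 455.9, 351.2 and 363.1 units at day 0 (-1.49 ± 0.30, limma adjusted p = 0.0836). At GP day 1 Id3 was at 856.2, 574.1 and 445.8 units. The difference of GP day 3 from GP day 1, -2.12, was called (limma adjusted p = 0.00106), with the same GP day 3 arrays. Its relative Id1 was at 45.9, 25.7 and 50.9 units, against 103.7, 70.4 and 75.6 units (-1.07 ± 0.42, limma adjusted p = 0.39).

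Cyp1b1, a cytochrome P450 of the aryl hydrocarbon receptor response, was at 488.6, 499.3 and 503.8 units at GP day 3, against 843.7, 969.3 and 1041.8 units at day 0 (-0.93 ± 0.20, limma adjusted p = 0.0987). Its 3 GP day 3 values were close together, and the groups did not overlap. Tnfrsf11b, which encodes osteoprotegerin, the decoy receptor that blocks osteoclast formation, was at 73.4, 115.2 and 116.9 units, against 169, 154.5 and 259.8 units (-0.93 ± 0.22, limma adjusted p = 0.143). Bcat1, the cytosolic transaminase of branched amino acids, was at 106.3, 127.3 and 466.7 units, against 276.8, 287.5 and 579.1 units (-0.96 ± 0.22, limma adjusted p = 0.143), with replicate 3 higher than the others in both groups. The rest of the genes with the smallest p were Wwc1, Phldb2, the oncostatin M receptor gene Osmr, the odorant receptor gene Olfr2, the matrix adhesion gene Tgfbi, the kinesin gene Kifc1, the neurotrophin gene Bdnf, Tpbg, and the endotoxin co-receptor gene Cd14. Their log2 differences were between -0.61 (Cd14) and -1.36 (Kifc1), with limma adjusted p between 0.0987 and 0.143. Olfr2 was at 22.7, 28.4 and 17.5 units at GP day 3, 2 of them under the floor, so its difference is partly measured to the floor. The probe sets used for Kifc1, Tnnt1, Mgp, H2-K1, Sc5d, Plk1, Nsdhl and Igf2 carry the manufacturer's suffixes for sequence shared with, or similar to, other transcripts, which may add to their signal. Dimmer probe sets also gave smaller log2 differences for Wwc1 (-0.11 beside -0.66) and, among genes described further on, for Vdr (-0.34), P4ha2 (-0.20), Plk1 (-0.26 and -0.20), Pck2 (-0.10) and Socs3 (-0.16).

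Genes of the osteoblast programme were next examined with a list of 28 genes, of which 17 were tested. None passed the adjusted threshold. At an unadjusted p under 0.05, 0 were higher and 2 were lower, beside 4.86% and 5.16% of all genes. The list's median log2 difference was -0.07, beside 0.01 over all genes. Alpl, the alkaline phosphatase that splits GP, was at 33.4, 20.6 and 20.9 units at GP day 3, against 34.1, 23.3 and 10.2 units at day 0. Both groups were at or near the floor, so that no change in Alpl could be measured in these cells (log2 difference -0.01, 95% interval -0.79 to 0.77). With ascorbic acid and BMP-2 as well, day 3 cells gave 363.3, 557.1 and 970.9 units. Col1a1 differed by -0.19 ± 0.14 (limma adjusted p = 0.703), with 0.27 for its second probe set. Col1a2 differed by -0.09 (95% interval -0.33 to 0.14), Sparc, which binds collagen, by -0.07 (-0.36 to 0.22), the mineralisation inhibitor Mgp by -0.10 (-0.40 to 0.19) and the osteoblast cadherin Cdh11 by 0.15 (-0.20 to 0.49). For these 4 genes a change of 1 log2 unit either way was outside the interval.

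The list of phosphate and mineral handling had 8 tested genes, with none past the adjusted threshold. At an unadjusted p under 0.05, 1 was higher and 4 were lower, beside 4.86% and 5.16% of all genes. Without the block 1 was higher and 1 lower, beside 133 and 100 of the 5677 genes. Its median log2 difference was -0.35, and the replicates gave -0.24, -0.42 and -0.24. Xpr1, the phosphate exporter of the cell membrane, was at 229.3, 185.2 and 253.8 units at GP day 3, against 325.2, 270.7 and 385.6 units at day 0, without overlap (-0.55 ± 0.13, limma adjusted p = 0.145). Slc20a1, a sodium-phosphate importer, was at 40.4, 23 and 60.8 units, against 45.6, 69.4 and 88.2 units (-0.73 ± 0.26, limma adjusted p = 0.347). Its GP day 3 replicate 2 value was under the floor, and its log2 difference lay between -1.01 and -0.05 over the alternatives run. The gene for the vitamin D receptor, Vdr, differed by -0.80 ± 0.30 (limma adjusted p = 0.359). The pyrophosphate exporter Ank was the gene of the list that was higher.

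The list of fibrillar collagens and collagen maturation, to which Lox belongs, had 16 tested genes. Lox was the 1 gene called, and the median was 0.01. By the unadjusted p 3 were lower and 0 were higher, beside 5.16% and 4.86% of all genes. Without the block 2 were lower and 0 higher, beside 100 and 133 of the 5677 genes. P4ha2, a subunit of the collagen prolyl hydroxylase that uses ascorbic acid, differed by -0.53 ± 0.17 (limma adjusted p = 0.292). Among 31 other matrix genes, 6 were higher and 4 were lower at an unadjusted p under 0.05 (4 and 1 without the block). Over all genes 4.86% were higher and 5.16% lower (133 and 100 of 5677 genes without the block). Col8a1, a short-chain collagen, differed by 0.56 ± 0.16 (limma adjusted p = 0.243) and Lgals3bp, a secreted galectin ligand, by 0.69 ± 0.18 (0.183). Ccn2, the connective tissue growth factor gene, was at 12.7, 28.3 and 61.6 units at GP day 3, against 74.7, 182.6 and 235.4 units at day 0 (-2.07 ± 0.56, limma adjusted p = 0.197). Its GP day 3 replicate 1 value was under the floor, and its log2 difference lay between -2.55 and -0.93 over the alternatives run. Its relative Ccn5 differed by -1.27 ± 0.35 (0.204). None of the 31 genes was called.

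Genes of mitosis were higher at GP day 1 than at day 0 and near their day 0 level at GP day 3. A list of 41 genes of mitosis had 34 tested. At GP day 1, 21 of them were called higher than at day 0 (8 without the block), against 0.846% of all genes called higher, and the list's median log2 difference was 1.06. From GP day 1 to GP day 3, 27 were called lower (18 without the block), against 1.64% of all genes called lower (0.599% were called higher), with a median of -1.28. Set against day 0 itself, GP day 3 had 0 genes called in the list and a median of -0.16. At an unadjusted p under 0.05, 9 were lower and 0 were higher, beside 5.16% and 4.86% of all genes. Without the block 4 were lower and 0 higher, beside 100 and 133 of the 5677 genes. Of the 34 differences, 32 were below 0, beside 48.5% over all genes. The 3 comparisons share arrays, so they are not independent of each other.

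Mki67, the proliferation antigen, was at 180.9, 159.5 and 125.4 units at day 0, at 539.9, 430.3 and 283.2 units at GP day 1, and at 181.4, 143.1 and 139.2 units at GP day 3. Its log2 difference between GP day 3 and day 0 was 0.00, with a 95% interval of -0.37 to 0.37. Cdk1, the kinase that drives entry into mitosis, was at 382.7, 538.3 and 333.9 units at day 0, 1243, 933.4 and 753.5 units at GP day 1 and 435.4, 340.2 and 445.1 units at GP day 3 (difference of GP day 3 from day 0 -0.02, 95% interval -0.41 to 0.37). For both genes the GP day 3 and day 0 arrays overlapped, while every GP day 1 array was above all of them. Cdc20, which activates the anaphase-promoting complex, was at 348.8, 470.3 and 364.7 units at day 0, at 1136.6, 1048.5 and 928.6 units at GP day 1, and at 296.7, 342.7 and 446.3 units at GP day 3. Its rise at GP day 1 was 1.40 ± 0.14 (limma adjusted p = 0.00031) and GP day 3 was below GP day 1 by a log2 difference of -1.54 ± 0.14 (0.000102).

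Some mitotic genes were below their day 0 level on all 3 arrays at GP day 3, although none was called. Aurkb, a kinase of the chromosomal passenger complex, was at 91.9, 104.4 and 114.8 units at GP day 3, against 128.3, 144.7 and 162.1 units at day 0 (-0.48 ± 0.15, limma adjusted p = 0.278). Plk1, the polo-like kinase of mitotic entry, was at 184.5, 132.5 and 184.7 units, against 275.3, 271.5 and 217.1 units (-0.61 ± 0.16, limma adjusted p = 0.191). Ccna2, cyclin A, differed by -0.36 ± 0.13 (0.358), and Tacc3, a spindle protein, by -0.75 ± 0.23 (0.272). The list's median differed between replicates, at -0.17, -0.43 and 0.00, the last being the replicate whose GP day 3 array had the high actin ratio.

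DNA replication genes gave fewer calls than the mitosis list in both steps over time. Of 33 tested, 0 were called at GP day 1 against day 0, where 14 were higher at an unadjusted p under 0.05, beside 4.95% of all genes, and the median was 0.36. At GP day 3, 4 were called lower than at GP day 1 (1 without the block), against 1.64% of all genes called lower. In that step 19 were lower and 1 was higher at an unadjusted p under 0.05, beside 7.56% and 7.03% of all genes. The median of that step was -0.46. Against day 0 the median at GP day 3 was -0.08, with 0 called and 1 lower at an unadjusted p under 0.05. Pcna, the sliding clamp of the replication fork, differed between GP day 3 and day 0 by 0.03 (95% interval -0.23 to 0.30). Of the inhibitors of cyclin-dependent kinases, Cdkn1a was at 374.5, 394.1 and 1037.7 units at GP day 3, against 391.4, 332.5 and 1012.8 units at day 0, a difference of 0.07 (-0.26 to 0.40) next to a far larger gap between replicate 3 and the others. Cdkn1b differed by -0.45 (-0.99 to 0.09) at values that were mostly near the floor.

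**Figure D3:**
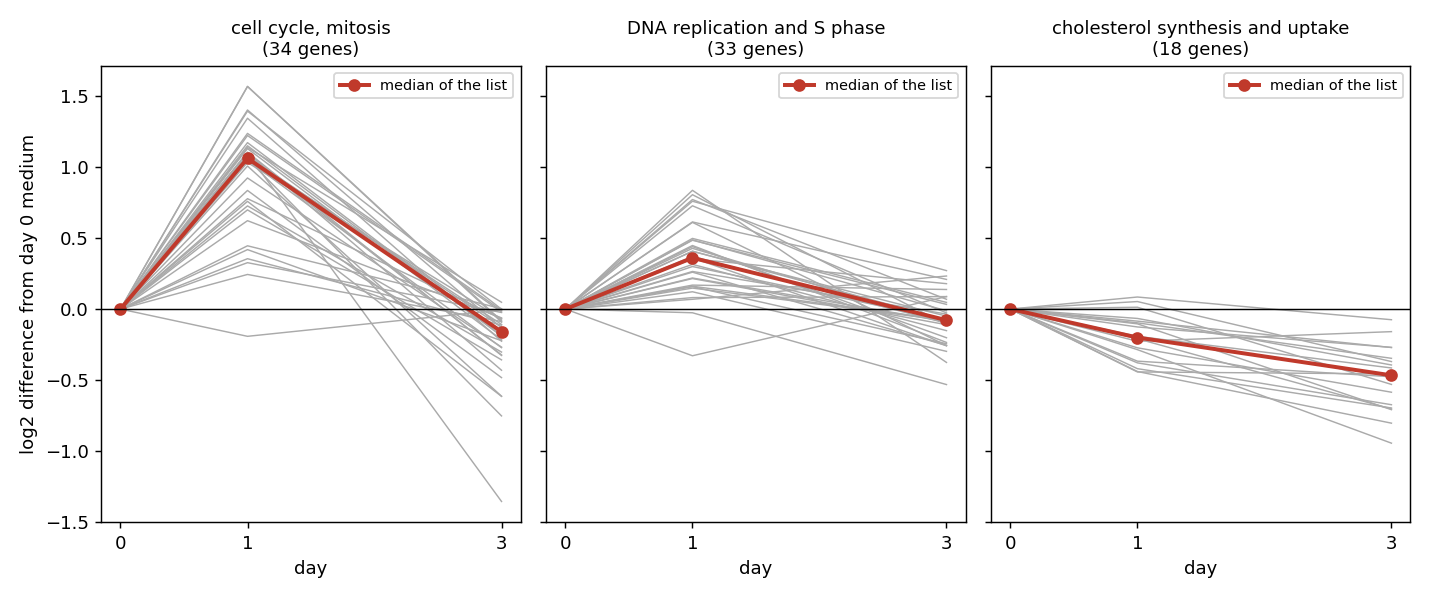
Log2 difference from day 0 medium (y axis) at days 0, 1 and 3 with GP (x axis) for the tested genes of 3 lists, a grey line per gene, with the median in red. The medians of the mitosis list are 1.06 at day 1 and -0.16 at day 3, those of the DNA replication list 0.36 and -0.08, and those of the cholesterol list -0.20 and -0.47.

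Promoters of the tested genes of the mitosis list, called or not, are described because late cell cycle genes are known for a pair of promoter elements. These are the CCAAT box and the cell cycle homology region. Promoter windows (250 bases before to 50 bases after the start site, RefSeq, build GRCm38.p6) were found for 28 of the 34 tested genes of the list, with 29 windows. CCAAT on either strand was in 79.3% of these windows, beside 37.4% of all 32851 windows of the table, and TTTGAA, the core of the cell cycle homology region, on either strand, was in 72.4%, beside 17.9%. Both were in 69.0%, beside 6.95%. A match is a description of the letters in the window. In the 3 windows printed, the capitals mark CCAAT or its reverse complement ATTGG, and TTTGAA or its reverse complement TTCAAA, and none of these matches overlap. The genes were those with the smallest p between GP day 3 and GP day 1 among list members called in both steps with 1 window in the table. The windows are chr4:118437294-118437593 on the minus strand for Cdc20, chr9:70421505-70421804 on the minus strand for Ccnb2 (cyclin B2), and chr5:30666636-30666935 on the plus strand for Cenpa (the histone H3 variant of centromeres).
Cdc20: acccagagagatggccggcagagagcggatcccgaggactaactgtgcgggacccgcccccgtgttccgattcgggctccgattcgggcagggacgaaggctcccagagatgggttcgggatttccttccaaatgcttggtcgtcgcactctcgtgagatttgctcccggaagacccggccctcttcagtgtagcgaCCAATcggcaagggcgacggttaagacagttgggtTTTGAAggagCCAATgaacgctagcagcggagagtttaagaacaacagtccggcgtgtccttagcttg
Ccnb2: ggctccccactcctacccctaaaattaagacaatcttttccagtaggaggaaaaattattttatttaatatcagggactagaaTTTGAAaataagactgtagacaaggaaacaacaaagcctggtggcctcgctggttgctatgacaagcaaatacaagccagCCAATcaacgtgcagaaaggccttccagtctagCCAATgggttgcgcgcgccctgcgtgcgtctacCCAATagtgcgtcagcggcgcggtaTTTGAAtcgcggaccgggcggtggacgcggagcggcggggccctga
Cenpa: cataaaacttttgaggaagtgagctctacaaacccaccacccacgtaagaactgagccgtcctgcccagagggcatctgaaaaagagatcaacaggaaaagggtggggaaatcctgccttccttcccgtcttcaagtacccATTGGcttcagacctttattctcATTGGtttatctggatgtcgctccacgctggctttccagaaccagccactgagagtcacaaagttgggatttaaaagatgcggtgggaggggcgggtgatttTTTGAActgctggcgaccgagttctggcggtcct

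The Ccnb2 window held 3 CCAAT and 2 TTTGAA matches, and the Cdc20 and Cenpa windows held 2 and 1 each. Ccnb2 was at 583.8, 636.2 and 567.7 units at day 0, at 1387.9, 1074.8 and 1323.5 units at GP day 1 and at 523.1, 509.6 and 607.8 units at GP day 3. Cenpa was at 99.8, 98.8 and 102.4 units at day 0, 211.8, 207.1 and 221.3 units at GP day 1 and 85.4, 65.8 and 91.8 units at GP day 3. In both genes every GP day 1 array was above every array of the other days. In the cholesterol list, with 12 of 18 genes matched and 14 windows, CCAAT was in 85.7% of the windows and TTTGAA in 0%, and a sterol response element core, TCACNCCAC on either strand, was in 1 window.

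Cholesterol genes had the lowest median of the 27 lists. Many of the 18 tested genes of cholesterol synthesis and uptake are known targets of the sterol-sensing factor SREBP-2. All 18 had a log2 difference below 0 at GP day 3, beside 48.5% of all genes. At an unadjusted p under 0.05, 8 were lower, beside 5.16% of all genes. Without the block 5 were lower, beside 100 of the 5677 genes. None passed the adjusted threshold. The median was -0.47. Fdps, the farnesyl diphosphate synthase, was at 748.7, 1253.7 and 957.7 units at GP day 3, against 2087.3, 3054.8 and 1006.2 units at day 0 (-0.94 ± 0.24, limma adjusted p = 0.164). Nsdhl, a sterol dehydrogenase, was at 166.5, 218.2 and 125.5 units, against 336.2, 381.4 and 189.4 units (-0.80 ± 0.20, limma adjusted p = 0.177). In both genes replicates 1 and 2 carried the larger difference. Hmgcs1, the synthase at the start of the pathway, differed by -0.53 ± 0.22 (0.423), Msmo1 by -0.67 ± 0.26 (0.386), Dhcr7 by -0.70 ± 0.29 (0.431), Sc5d by -0.59 ± 0.23 (0.399) and the fatty acid desaturase Scd1, another target of SREBP factors, by -0.71 ± 0.27 (0.375).

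The 3 replicates did not give the same picture of this list. Its median was -0.76 in replicate 1, -0.84 in replicate 2 and 0.22 in replicate 3. Idi1, the isopentenyl diphosphate isomerase, differed by -1.35 and -1.21 in replicates 1 and 2 and by 0.45 in replicate 3. Without the GP day 3 array of replicate 3 the median was -0.64, with 13 of 18 genes lower at an unadjusted p under 0.05, beside 5.64% of all genes in that fit, and 0 called. Without all arrays of replicate 3 it was -0.88, and Fdps, Scd1 and Idi1 were called lower. In that fit 68 of all 7495 probe sets were called (0.907%), 41 of them lower. The difference between replicates has 1 array per group and was not tested.

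Among the other lists, with none of their genes called, counts at an unadjusted p under 0.05 are read against the 4.86% higher and 5.16% lower of all genes. Counts without the block are read against 133 higher and 100 lower of the 5677 genes. In the lysosome list 5 of 29 genes were higher and 0 were lower (median 0.11). Ctsz, a lysosomal cathepsin, was at 477.5, 488.8 and 480.9 units at GP day 3, against 323.1, 352.7 and 326 units at day 0, with little spread within either group (0.53 ± 0.12, limma adjusted p = 0.143). Hexa, a subunit of beta-hexosaminidase, differed by 0.64 ± 0.16 (0.154) and Gaa, the acid alpha-glucosidase, by 0.41 ± 0.11 (0.183). Both were called higher at GP day 3 than at GP day 1 (limma adjusted p = 0.00744 and 0.00545, and 0.179 and 0.142 without the block). Those calls use the same GP day 3 arrays and are not separate support. In the list of immediate early and serum response genes, 6 of 23 were lower and 2 were higher (1 and 0 without the block), with a median of -0.26 that was 0.14 in replicate 3. Jund, an AP-1 subunit, was at 2377.5, 2590.5 and 1806.8 units at GP day 3, against 3601, 3491.5 and 2085.1 units at day 0 (-0.41 ± 0.11, limma adjusted p = 0.183), and Klf6, a zinc finger factor, differed by -0.44 ± 0.12 (0.191).

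Of 31 genes of oxidative stress and detoxification, 7 were higher and 2 were lower (1 and 2 without the block), with a median of 0.16, and Gsr, the glutathione reductase, was among the lower ones at -0.55 ± 0.17 (limma adjusted p = 0.262). In the list of hypoxia and glycolysis 4 of 21 were lower and 1 was higher (1 and 0 without the block), with Pgk1, a kinase of glycolysis, at -0.52 ± 0.15 (0.24). Antigen presentation genes of the interferon list, H2-K1 and Tap2, differed by 0.50 ± 0.14 (0.226) and 0.59 ± 0.17 (0.24), while the whole list had 2 of 19 higher and 2 lower (2 and 1 without the block). The list of insulin-like growth factors had 10 tested genes, with Igf2, the growth factor itself, at 0.71 ± 0.19 (0.191) and Igf1r, its signalling receptor, at -0.41 ± 0.13 (0.301). The ribosome biogenesis list, with 22 tested genes, had a median of -0.01, 1 gene lower and 0 higher.

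**Figure D4:**
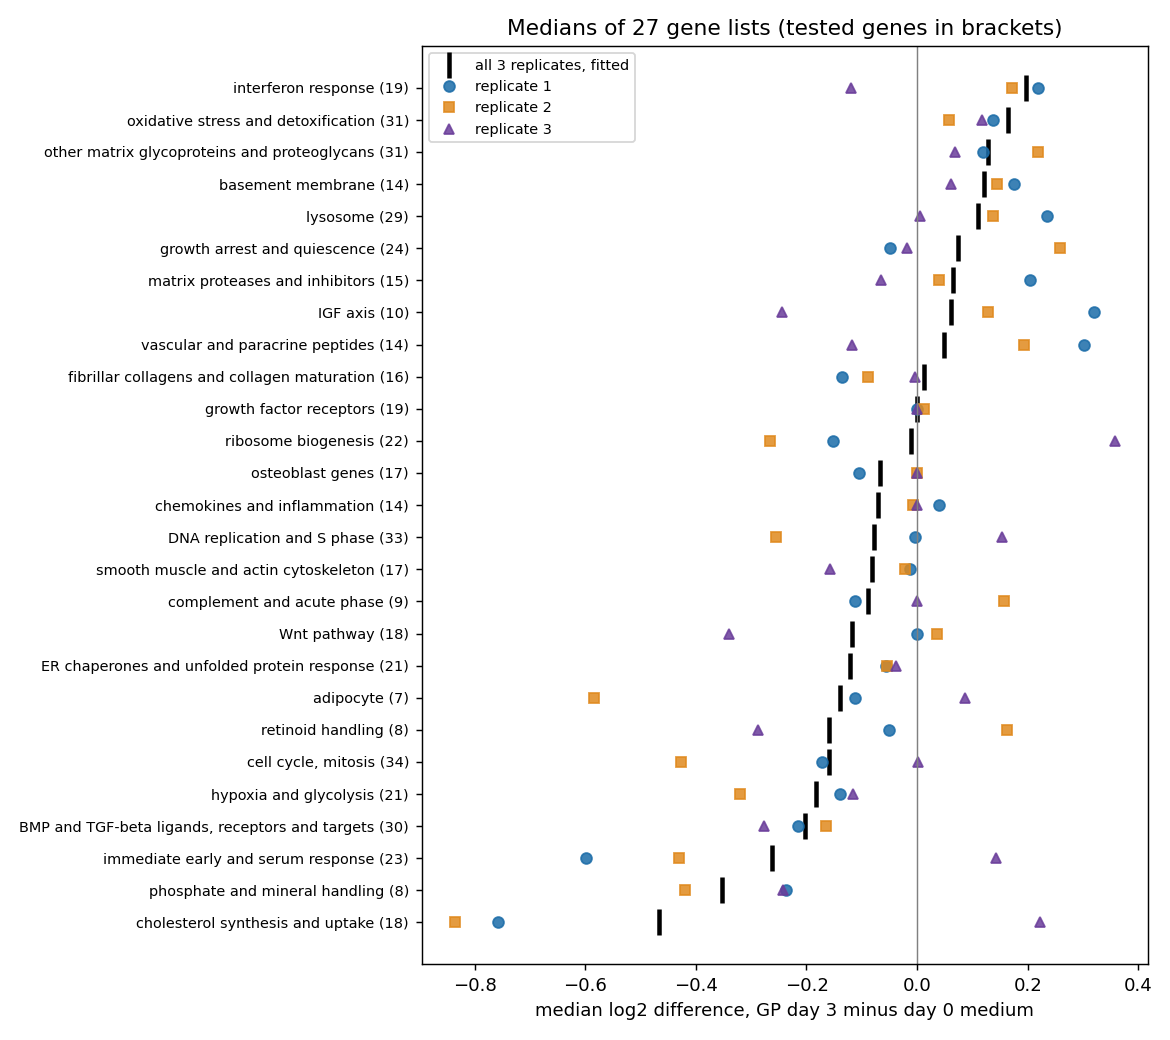
Median log2 difference of GP day 3 minus day 0 medium (x axis) for 27 gene lists (y axis, with the number of tested genes), the black bar from the fit over all replicates and the symbols for each replicate. The cholesterol list is lowest at -0.47 and has its replicate 3 median at 0.22, on the other side of 0.

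Leaving out the replicate 3 arrays changed the calls most. Without the GP day 3 array of replicate 3, 23 of 7495 probe sets were called (0.307%), 11 higher and 12 lower. The higher ones included Cmbl, Enpep, Mmp9, Tnnt1, Tnnc1, Htra1, Lep and Sparcl1, a matrix protein related to Sparc, which was at 544.7, 382.9 and 69.1 units at GP day 3, against 125, 103.7 and 36.7 units at day 0. The lower ones included Lox, Id3, Bcat1, Kifc1, Phldb2, Pnp and Cd14, and also Snai1, a repressor of epithelial genes, and Pck2, the mitochondrial carboxykinase, with log2 differences of -1.04 and -1.41. In that fit Enpep differed by 2.28 (limma adjusted p = 0.0185) and Id3 by -1.89 (0.011).

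Without all arrays of replicate 3, 68 probe sets were called (0.907%), 27 higher and 41 lower, and 19 probe sets were called in both of these fits, 19 of 23 and 19 of 68. Among those called here and not in the fit before were Agt at 2.16 (limma adjusted p = 0.0162), Dcn, the small proteoglycan decorin, at 1.84 (0.00777), Anxa8 at -2.60 (0.0004), the metalloproteinase inhibitor Timp1 at -1.39 (0.0103), the cytokine signalling inhibitor Socs3 at -1.37 (0.00459) and Cebpd, a factor of the acute phase and of adipogenesis, at -1.14 (0.00288). In replicate 3 itself the log2 differences of Dcn, Timp1, Socs3 and Cebpd were 0.07, 0.31, 1.33 and 0.09. Over all genes the median absolute log2 difference was 0.233 in replicate 3, 0.230 in replicate 1 and 0.246 in replicate 2, while 169, 207 and 236 genes differed by more than 1 log2 unit in replicates 3, 1 and 2, the fewest in replicate 3. Leaving out replicate 1 or replicate 2 in place of replicate 3 gave 0 calls in limma, with 534 and 455 probe sets under 0.05 before adjustment. Leaving out only the day 0 medium array of replicate 3 gave 11 calls. The part of the RNA quality of the GP day 3 replicate 3 array in these counts was not tested.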

How the data were processed

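RNA of 15 samples of the MC3T3 line was hybridised to single-colour oligonucleotide arrays. The authors deposited 1 table of linear intensities per probe set; its values show that the arrays have nearly equal trimmed means (2nd to 98th percentile), and the software is not given in the sources used here. The 66 control probe sets were left out. A floor of 24.9, the 40th percentile over the whole table, replaced anything lower, log2 was taken, and probe sets with a mean under it were dropped. Of 12422 probe sets, 10833 had 1 symbol in the platform annotation, 396 several and 1193 none; 10817 matched RefSeq (GRCm38.p6) by Entrez identifier and 0 symbols changed. Each gene used its brightest tested probe set.

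Contrasts came from limma 3.58.1 under R 4.3.3 (lmFit, then eBayes with a mean trend; tested on simulated data) over all 15 arrays, with 1 coefficient per group and the replicate number as a block (8 residual degrees of freedom), and adjusted by Benjamini-Hochberg over all probe sets, two-sided, called at 0.05. The number pairs the arrays: deviations from group means of same-numbered arrays correlated at 0.219 to 0.744 over 30 pairs of arrays (0.295 to 0.585 for GP day 3 with day 0), and every array correlated best with its own number. With arrays, their number limits the precision.

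The rule for named genes took the 15 largest called changes each way with 1 sign in all 3 replicates, up to 4 called genes per list, and a fixed set of bone, phosphate and cell cycle genes; called genes were only Cmbl and Lox. Of that fixed set Runx2, Spp1, Slc20a2, Enpp1, Ccnb1 and Cdkn1c are not analysed here. Other genes shown were chosen after their values were seen. Members and the 27 lists were chosen with earlier results of these data known. Alternatives changed the block, floor, filter, scaling, variance model, array weights and arrays included.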

Additional observations from a re-analysis of the deposited data

Results flagged for a closer look

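The ratio of the 3' to the 5' beta-actin control signal was 2.11 on the GP day 3 replicate 3 array, above the 1.00 to 1.34 of the other 14 arrays. These control probe sets are outside the comparisons above.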

How the results depend on the processing

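The count of 2 called probe sets between GP day 3 and day 0 medium was 1 with no replicate block, with a floor at the 10th percentile and with a filter at the 60th percentile of means, 4 with a floor at the 60th percentile and with quantile normalization, 7 with a pseudocount, 9 with median scaling, 44 with array weights and 0 with only the 6 arrays, where 577 had an unadjusted p under 0.05 in limma. Leaving out arrays gave 0 (without day 0 medium replicate 2, or without replicate 1 or 2) to 68 (without replicate 3), with 23 without GP day 3 replicate 3 and 11 without day 0 medium replicate 3.

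The 55 calls of GP day 1 against day 0 medium were 16 with no replicate block, 26 with no signal filter, 99 with array weights, 14 with the 6 arrays alone, and 0 (without replicate 1) to 56 with arrays left out. The 145 calls of GP day 3 against GP day 1 were 53 with no replicate block, 89 with a floor at the 60th percentile, 78 with no signal filter, 418 with array weights, 69 with the 6 arrays alone, and 37 to 174 with arrays left out.

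Signs turned for some uncalled genes. Alpl gave 0.276 with a floor at the 10th percentile, 0.094 with a pseudocount and 0.075 with array weights, Mki67 0.016 with quantile normalization and Pcna -0.024 with array weights. Tacc3 did not change sign, but gave 0 with a floor at the 60th percentile, above its signal. With arrays left out, the log2 difference ranged from -0.289 to 0.268 for Alpl, -0.024 to 0.36 for Cdh11, -0.238 to 0.3 for Cdk1, -0.076 to 0.092 for Mki67, -0.09 to 0.197 for Pcna, -0.02 to 0.155 for Cdkn1a, -0.345 to 0.029 for Cdc20 and -1.365 to 0.063 for Socs3. The list medians for mitosis (-0.282 to -0.086) and cholesterol (-0.877 to -0.222) kept their sign under each alternative. Those for DNA replication (-0.232 to 0.096), ribosome biogenesis (-0.184 to 0.1) and fibrillar collagens with collagen maturation (-0.127 to 0.023) did not, among others. The cause was not tested. Genes near the floor of 24.9 units are limited by their signal.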
